A study of Homo sapiens with 48 samples.

Results

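HK-2 cells treated with Fk for 12 h were set against HK-2 cells treated with Ra for 12 h, gene by gene. HK-2 is an immortalised cell line taken from the proximal tubule of the human kidney. The members are the arrays whose titles read Fk at 12 h or Ra at 12 h, which is 6 of the 48 arrays of the series, 3 per treatment, each a biological replicate by its label. Vehicle controls of the same set and time, shared by both compounds, gave 3 further arrays, and 6 arrays of Fk and Ra at 48 h served for the comparison across time. All groups were the same line, with no further allele or transgene named in the labels, grown in medium with insulin, EGF and hydrocortisone, seeded a day before treatment and treated near confluence. Fk and Ra are the labels' own abbreviations and are kept as such, since their full names, doses and vehicle were not stated in the material analysed here. The series set out to find expression signatures of kidney toxicity, and its labels place both compounds in a class called Tox 1. At this early time the question is which transcripts already separate the 2 treatments.

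Proximal tubular cells reabsorb solutes and respond to insulin and EGF through kinase cascades that feed into mTOR, the kinase that sets translation and growth to nutrient and hormone supply. When that signalling is low, FOXO transcription factors enter the nucleus and turn on genes that raise the cell's sensitivity to insulin, and genes for ribosome production are turned down. Stress kinases acting on the translation factor eIF2 instead turn on ATF4 and CHOP, which drive amino acid supply and brakes on mTOR such as SESN2 and DDIT4. Cytosolic chaperones of the heat shock family fold newly made proteins and follow the factor HSF1.

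Levels are log2 values as deposited, per array, and a difference is the mean of Fk minus the mean of Ra on that scale, so 1 unit is a doubling and a positive value means higher in Fk. Of the genes with a named probe set over log2 4 in at least 3 of all arrays, 11356 were tested with limma, which pooled the spread of all 16 groups, and a call required an adjusted p (Benjamini-Hochberg) below 0.05. The replicates come from one line, and p-values measure the spread between these arrays. Whole-culture RNA was measured, so fewer cells of a kind and less RNA per cell cannot be told apart.

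Fk replicate 3 stood apart from the other arrays before any comparison. It correlated with Fk replicates 1 and 2 at 0.948 and 0.952 over the genes tested, while those replicates correlated with each other at 0.994 and the Ra arrays among themselves at 0.991 to 0.995. In it 1840 genes lay more than 1 log2 from the mean of the other 2 Fk arrays, 662 above and 1178 below, which is rank 3 of the 48 arrays. Its upper quartile was 6.85, against 7.02 and 7.10 in Fk replicates 1 and 2 and 7.03 to 7.10 in the Ra arrays. The ratio of 3′ to 5′ signal of the ACTB controls, a sign of RNA integrity, was 1.10 on the log2 scale in that array, against 1.01 and 1.17 in its fellows, so this measure did not set it apart. The main counts and differences are therefore given with all 6 arrays and again without Fk replicate 3, which leaves 2 Fk arrays against 3 Ra arrays.

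The line's identity was checked against markers. All 9 epithelial markers on the array, among them KRT7, KRT8, KRT18, EPCAM and CDH1, were over log2 4 in all 6 arrays. Of 23 proximal tubule markers, 7 were (PAX8, CDH6, CDH16, DPP4, MIOX, SLC3A1 and SLC4A4), and 15 were below that level in all 6, including the endocytic receptors LRP2 and CUBN, the water channel AQP1 and the phosphate carrier SLC34A1. Epithelial markers were thus present, the transporters SLC3A1 and SLC4A4 were detected, and those 15 proximal tubule markers were not. Of the leukocyte markers 0 of 10 exceeded that level in any of the 6 arrays, with medians over the list of 2.25 to 2.32 in Fk and 2.26 to 2.31 in Ra. Of 12 fibroblast markers 4 did in all 6 (ACTA2, COL1A1, DCN and LUM), with list medians of 3.01 to 3.05 in Fk and 2.98 to 3.03 in Ra, and of 12 endothelial markers 2 did, FLT1 and PECAM1.

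Across all genes KLHL24 alone passed the test at 12 h. It fell in Fk relative to Ra, and 0 genes rose. This is 0.00881% of the genes tested. At an unadjusted p under 0.05 there were 875 genes, where 568 is the number that 5% of the tested genes makes. Leaving out Fk replicate 3 gave 0 genes called by limma, with a lowest adjusted p of 0.239. An unadjusted p under 0.05 was seen for 258 genes, below 568. The spread pooled over all 48 arrays had a median SD of 0.318. Ra at 12 h had 0.137, and Fk replicates 1 and 2 had 0.099. With that replicate left out, the 2 groups alone had 1459 genes under 0.05 and the 12 h arrays of the set alone 1498. Neither fit called a gene, with lowest adjusted p of 0.158 and 0.0538. The replicate numbers of the labels paired the Fk and Ra arrays of this time. A fit that adds this number as a block called 5 genes with all arrays, all lower in Fk: KLHL24, NATD1, MNT, UBALD2 and DENND3. Its block held each number to the same effect in the 12 h and 48 h arrays of the set, and likewise within the other sets of the series. That fit called 4 genes without Fk replicate 3: KLHL24, NATD1 and UBALD2 of these 5, and H2AC25, which is named here after its values were seen. With the block in the 12 h arrays alone, 3 genes were called (KLHL24, MNT and DENND3), and 0 without Fk replicate 3. Weighting each array by its own spread, with the same weight for all genes, gave 355 calls, and 346 without Fk replicate 3. The count thus rests on how the spread is estimated. These are called gene-by-gene weights below, after the way they were estimated. Under those weights genes described here as uncalled passed, among them CHMP1B (adjusted p 0.000133), SNRPA1 (0.000945), LTV1 (0.0019) and HSPA4 (0.00476). The values of DENND3, at 6.24, 5.74 and 5.15 in Fk against 6.63, 6.87 and 6.12 in Ra, overlap between the groups.

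Differences were small for most genes. The median over all genes was 0.01 with all arrays, with a median SE of 0.26, and 0.01 without Fk replicate 3. More than 1 log2 separated the means of 57 genes in the direction of higher Fk and 137 of lower Fk, and without Fk replicate 3 those numbers were 14 and 37. Values of the 3 Fk and 3 Ra arrays did not overlap for 18% of genes, 10.2% with Fk higher and 7.75% with Fk lower. For 2 Fk against 3 Ra arrays, where gaps arise more easily, 32% did not overlap. The sign of the difference turned for 2830 genes when Fk replicate 3 was left out.

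**Figure D1:**
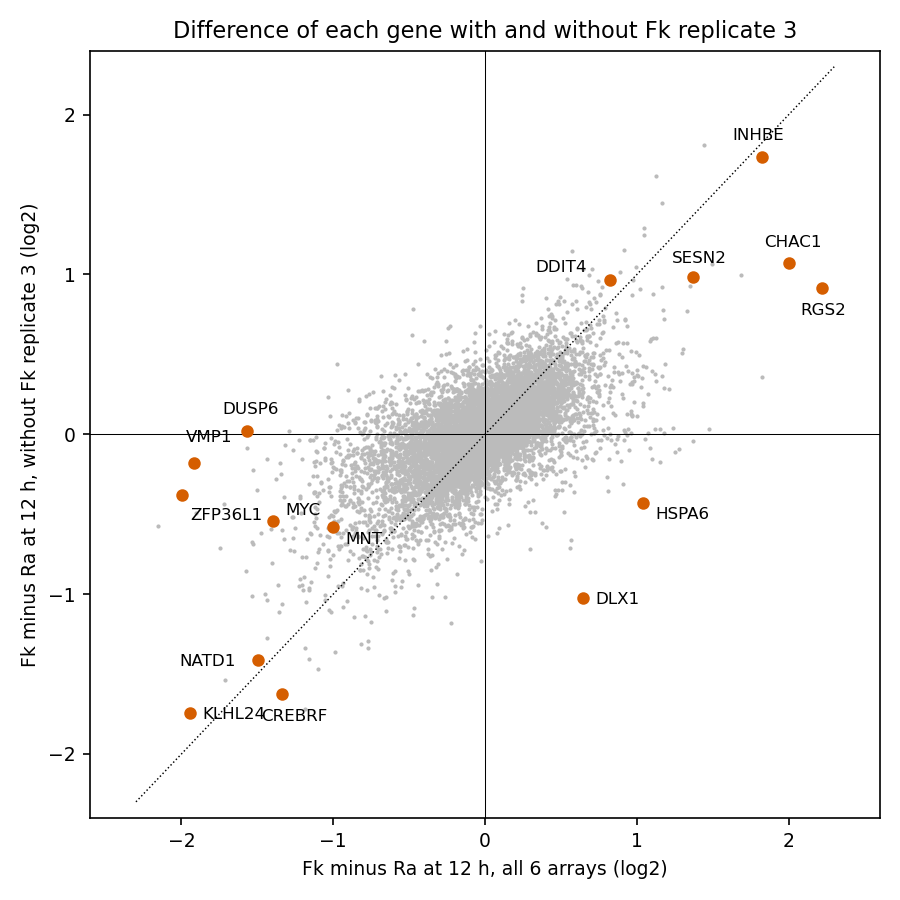
Each grey point is 1 of the 11356 genes. The x axis gives Fk minus Ra at 12 h with all 6 arrays and the y axis the same without Fk replicate 3, both in log2, with equality dotted. KLHL24, NATD1 and CREBRF lie far below 0 on both axes. DUSP6, VMP1 and ZFP36L1 lie at -1.57, -1.92 and -1.996 on the x axis and at 0.02, -0.18 and -0.38 on the y axis, and DLX1 and HSPA6 change sign.

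KLHL24 encodes a substrate adaptor of a cullin ubiquitin ligase, known in skin for controlling keratin turnover. Its probe set of highest mean, 226158_at, had levels of 7.50, 7.79 and 7.04 in Fk replicates 1 to 3, against 9.53, 9.67 and 8.97 in Ra replicates 1 to 3. The highest Fk array lay more than 1 log2 below the lowest Ra array. KLHL24 averaged 7.44 ± 0.37 in Fk and 9.39 ± 0.37 in Ra (SD, n = 3 each), a difference of -1.94 with an SE of 0.32 and a limma adjusted p of 0.00668, or 3.84-fold lower in Fk. The difference was -1.74 without Fk replicate 3, or 3.35-fold, with an adjusted p of 0.239. The call was also lost without Ra replicate 1 (adjusted p 0.112) or Ra replicate 2 (0.091), and where the spread came from fewer arrays, with an adjusted p of 0.0736 in the set of 18 arrays and 0.455 in the 2 groups alone. Vehicle cells had 7.30, 7.48 and 7.15, the range of the Fk cells. Against these controls Ra was higher by 2.08 with an adjusted p of 0.00186, and Fk lay 0.13 above them with an adjusted p of 1.0.

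The 5 KLHL24 probe sets did not all give this pattern, and Fk replicate 3 is where they part. Probe set 221985_at read 6.20, 6.51 and 10.998 in Fk, against 7.76, 7.97 and 7.89 in Ra. Probe set 221986_s_at read 6.65, 6.37 and 10.78 in Fk, against 7.95, 8.11 and 7.44 in Ra. In both, Fk replicates 1 and 2 lay below every Ra array and Fk replicate 3 lay above every Ra array. The dim probe set 242088_at read 3.31, 4.0 and 5.02 in Fk, against 5.47, 5.34 and 4.90 in Ra, and 206551_x_at barely differed, at 8.10, 8.25 and 8.86 in Fk against 8.20, 8.24 and 8.40 in Ra. With all arrays 3 of the 5 probe sets therefore had the opposite sign, and when probe sets were averaged the difference of KLHL24 was -0.56 with an adjusted p of 0.844, so the call was lost. The differences of the 5 probe sets without Fk replicate 3 were -1.74, -1.52, -1.32, -1.58 and -0.10, all negative.

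**Figure D2:**
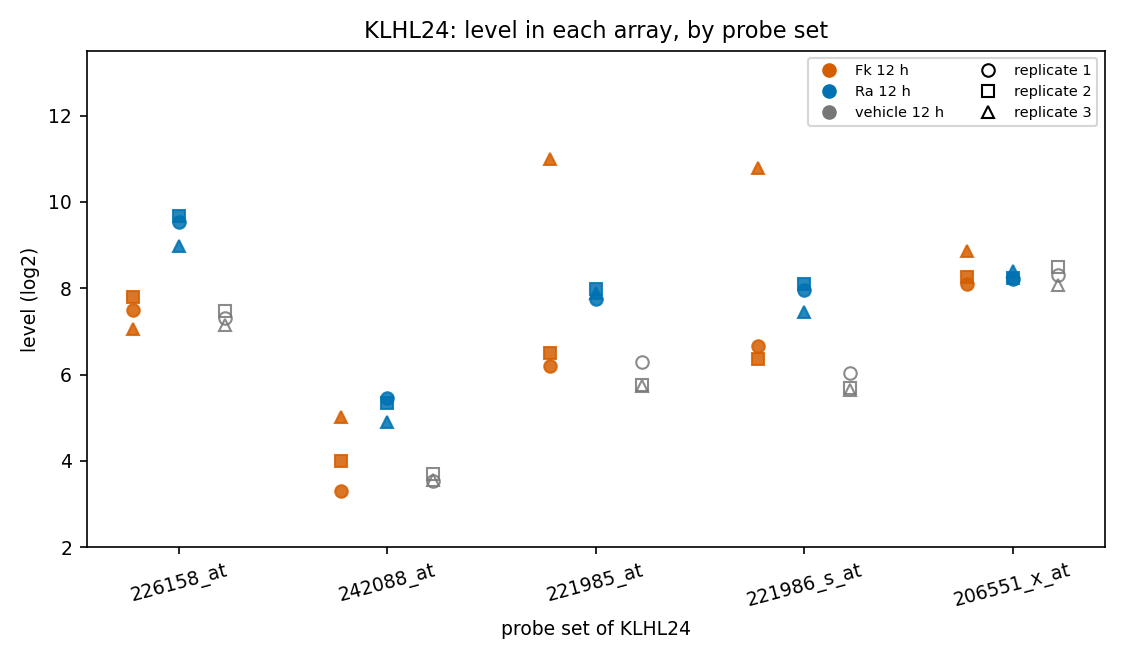
Level of KLHL24 (log2, y axis) by probe set (x axis), 1 point per array, with Fk left, Ra in the middle and vehicle right, and a marker shape per replicate. The Fk triangles (replicate 3) at 221985_at and 221986_s_at stand at 10.998 and 10.78, above all Ra arrays, while the circles and squares of Fk lie below them.

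The windows around the starts of KLHL24, NATD1 and MNT, the members called under the block that are named by rule, are shown because these genes lay lower in Fk together. Each runs from 250 bases before the gene's start to 50 after it, from RefSeq on GRCh38.p14, read in the gene's direction, at chr3:183635373-183635672 (plus strand) for KLHL24, chr17:21253361-21253660 (minus strand) for NATD1 and chr17:2401011-2401310 (minus strand) for MNT. Capitals mark the motifs found among those searched on both strands: CCAAT, the box bound by NF-Y, and CACGTG, the E-box bound by MYC and MNT with MAX.
KLHL24: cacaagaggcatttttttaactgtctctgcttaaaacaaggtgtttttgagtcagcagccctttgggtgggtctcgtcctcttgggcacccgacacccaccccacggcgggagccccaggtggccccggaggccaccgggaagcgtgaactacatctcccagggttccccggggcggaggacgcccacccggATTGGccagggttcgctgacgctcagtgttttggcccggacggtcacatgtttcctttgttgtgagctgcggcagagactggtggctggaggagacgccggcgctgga
NATD1: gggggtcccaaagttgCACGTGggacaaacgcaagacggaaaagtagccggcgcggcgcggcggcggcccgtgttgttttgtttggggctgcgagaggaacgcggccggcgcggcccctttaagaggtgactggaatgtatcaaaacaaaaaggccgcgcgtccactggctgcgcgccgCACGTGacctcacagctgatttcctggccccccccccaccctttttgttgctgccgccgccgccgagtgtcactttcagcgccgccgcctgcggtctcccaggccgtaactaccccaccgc
MNT: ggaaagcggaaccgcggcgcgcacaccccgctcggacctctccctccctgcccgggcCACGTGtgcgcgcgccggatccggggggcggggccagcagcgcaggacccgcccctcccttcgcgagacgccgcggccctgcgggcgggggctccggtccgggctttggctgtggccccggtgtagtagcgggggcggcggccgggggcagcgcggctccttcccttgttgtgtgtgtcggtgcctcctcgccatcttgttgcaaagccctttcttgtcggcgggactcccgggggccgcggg
KLHL24 holds 1 CCAAT on the minus strand, which 34.6% of the 35116 windows hold on either strand. NATD1 holds 2 E-boxes and MNT 1, and 7.26% of the windows hold at least 1. None of the 3 windows holds GTAAACA, the core bound by FOXO factors, found in 3.42% of windows, or TGATGCAA, the composite site of ATF4, found in 0.866%. A match describes the letters only, and a missing match says nothing about the factor.

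NATD1 and MNT were called under the block over both times and not in the main fit. The block in the 12 h arrays alone called MNT and not NATD1. With no block, gene-by-gene weights called both (adjusted p 0.00022 for NATD1 and 0.00407 for MNT). MNT was also called by limma without Fk replicate 1 (adjusted p 0.0366) or Fk replicate 2 (0.0437). NATD1, a small protein with an acetyltransferase-like domain, had 5.64, 5.11 and 5.13 in Fk, against 6.91, 7.14 and 6.31 in Ra. Its groups did not overlap, the difference was -1.49 (adjusted p 0.320) and -1.41 without Fk replicate 3. MNT, a repressor that competes with MYC for its partner MAX, had 7.75, 7.69 and 6.45 in Fk, against 8.50, 8.35 and 8.05 in Ra. Its difference was -1.0 (adjusted p 0.236), and -0.58 without Fk replicate 3, which was the lowest of the 6. With the block the adjusted p was 0.00126 for NATD1 and 0.00859 for MNT, and without Fk replicate 3 the blocked fit kept the call of NATD1 and lost that of MNT.

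CREBRF and UBALD2, chosen here after their values were seen because they were called between Ra and vehicle, showed the same order. CREBRF, a regulator that promotes turnover of the ER stress factor CREB3, had 6.53, 6.12 and 7.19 in Fk, against 8.12, 8.02 and 7.73 in Ra, a difference of -1.34 (adjusted p 0.453) and -1.63 without Fk replicate 3. UBALD2 had 8.06, 7.85 and 8.69 in Fk, against 9.39, 9.58 and 9.12 in Ra, a difference of -1.16 (adjusted p 0.462). All 3 Fk arrays lay below all 3 Ra arrays in both genes, and above the highest vehicle array, of 6.32 in CREBRF and 7.54 in UBALD2, except Fk replicate 2 in CREBRF. These genes share their Ra arrays with the comparison that picked them, and are no separate evidence.

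The other genes of lowest p that lay lower in Fk were CHMP1B, MYC, BSDC1, ELOVL7, FOXK1, PITPNM3, HIVEP1, MIB1 and UBN2. By role they include a fatty acid elongase (ELOVL7), a lipid transfer protein (PITPNM3) and a histone chaperone partner (UBN2). None passed the adjusted threshold, with unadjusted p from 4.52e-05 to 0.000839. CHMP1B, a subunit of the ESCRT-III membrane-cutting machinery, was at 8.87, 8.79 and 8.69 in Fk against 9.42, 9.28 and 9.35 in Ra, a difference of -0.57 (adjusted p 0.171) and -0.52 without Fk replicate 3. PITPNM3 stood at 4.75, 4.74 and 4.72 in Fk against 5.62, 5.69 and 5.69 in Ra, close to the detection level, with a difference of -0.94 that was -0.93 without that array. These were the 2 genes of the group with the least spread between replicates in Fk. MYC, the growth-promoting transcription factor, had 11.92, 11.55 and 9.18 in Fk, against 12.40, 12.09 and 12.34 in Ra. Its difference of -1.40 rested largely on Fk replicate 3 and was -0.54 without it, with 2 Fk arrays still below all Ra arrays.

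FOXK1, a forkhead factor that acts on glycolysis and autophagy under mTOR, likewise had 9.67, 9.49 and 8.05 in Fk, against 9.98, 10.02 and 10.06 in Ra. Its difference was -0.95, and -0.44 without Fk replicate 3. HIVEP1, a zinc finger factor of NF-kB sites, was at 8.66, 8.74 and 7.59 in Fk against 9.62, 9.72 and 8.92 in Ra, while MIB1, a ubiquitin ligase of Notch ligands, was at 9.29, 9.32 and 8.30 in Fk against 9.69, 9.65 and 9.54 in Ra. In BSDC1, ELOVL7, FOXK1, HIVEP1, MIB1, MYC and UBN2 Fk replicate 3 was the lowest array by a wide margin, with gaps of -1.01 to -2.56 from the mean of the other 2 Fk arrays. The groups stayed apart without it.

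Genes that lay higher in Fk were SNRPA1, TRIM26, KANSL2, LTV1, ZNF419, KIN, HSPA4L, HSPA14, EGLN3, RGS2, TUBGCP4 and SCFD2, again with none called. SNRPA1, a protein of the U2 small nuclear ribonucleoprotein of the spliceosome, had 11.32, 11.50 and 11.56 in Fk, against 10.83, 10.67 and 10.65 in Ra. The difference was 0.74 (adjusted p 0.320) and 0.69 without Fk replicate 3, and the vehicle arrays, at 11.43, 11.44 and 11.36, lay among the Fk arrays. Among its 4 probe sets 1 had the opposite sign. LTV1, an assembly factor of the small ribosomal subunit, had 9.63, 9.69 and 10.06 in Fk, against 9.12, 9.12 and 9.38 in Ra, and 10.11, 10.21 and 9.98 in vehicle. Ra fell below vehicle by 0.89 (adjusted p 0.0153), and the difference of Fk from Ra was 0.59 (adjusted p 0.453).

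TUBGCP4, a subunit of the gamma-tubulin ring that nucleates microtubules, had 7.36, 7.57 and 7.59 in Fk, against 6.89, 7.06 and 6.88 in Ra, a difference of 0.56, and 0.52 without Fk replicate 3. SCFD2, a protein of the Sec1 family, had 7.22, 7.47 and 7.68 in Fk against 6.15, 6.45 and 6.70 in Ra, and KIN, a nucleic acid-binding protein, had 7.88, 8.14 and 8.61 in Fk against 7.28, 7.56 and 7.04 in Ra. For these 3 genes all Fk arrays lay on the vehicle side of the Ra arrays. RGS2, an inhibitor of G protein signalling, had the highest difference of all genes at 2.22, from 7.08, 6.94 and 10.91 in Fk against 6.04, 5.98 and 6.25 in Ra. Its difference was 0.92 without Fk replicate 3. ZNF419, TRIM26, KANSL2 and HSPA4L were also highest in Fk replicate 3, and their differences of 0.98, 1.17, 0.75 and 1.09 were 0.36, 0.78, 0.42 and 0.59 without it.

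**Figure D3:**
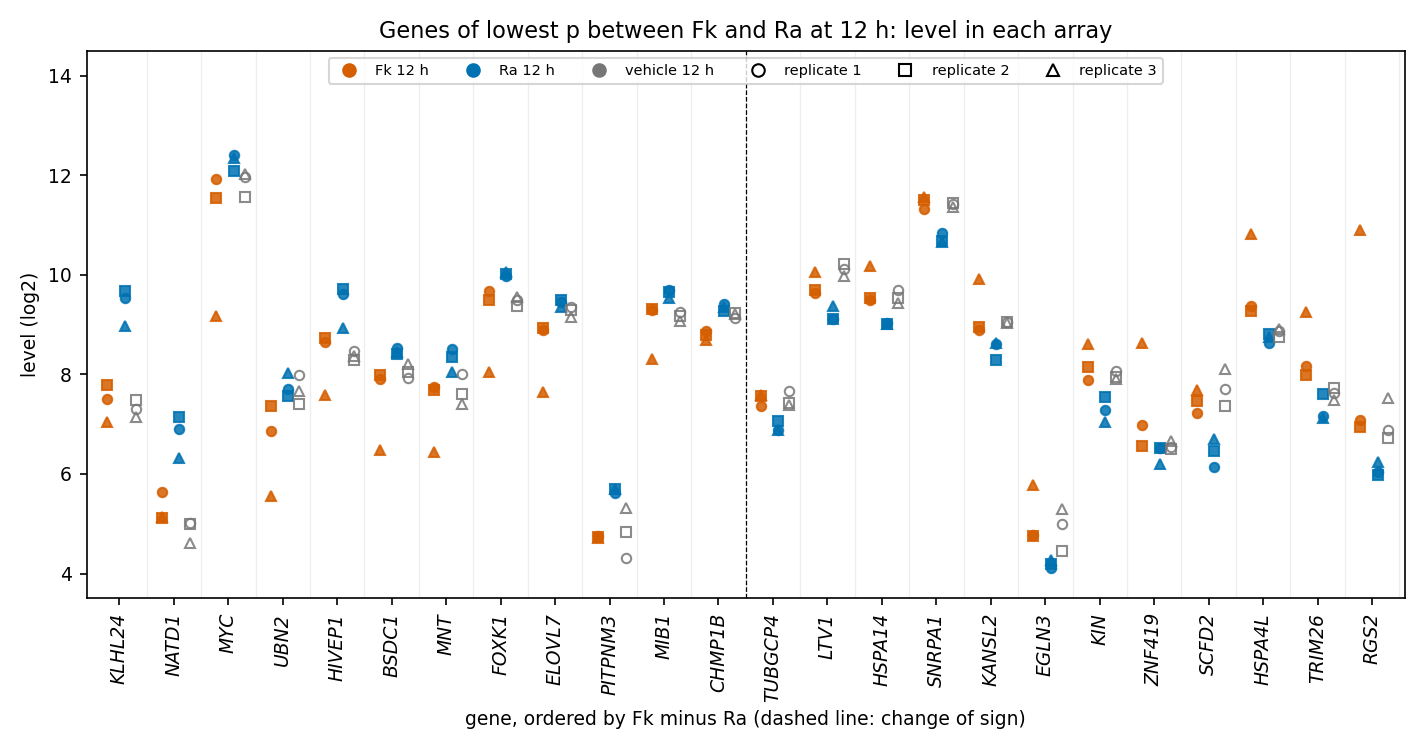
Level (log2, y axis) in each array of the 24 genes of lowest p whose Fk and Ra values do not overlap, ordered by Fk minus Ra (x axis), with Fk left, Ra in the middle and vehicle right within each gene. KLHL24, far left, is the called one. Fk replicate 3 (triangles) is the array that lies far from its fellows in MYC, UBN2, BSDC1, RGS2 and ZNF419.

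Gene lists were then read against the 18% of all genes whose groups do not overlap. The insulin and FOXO list holds receptors and adaptors of insulin signalling and genes that FOXO factors turn on. Of its 28 measured members, 1 (KLHL24) was called, 9 lay lower in Fk without overlap and 1 higher, or 35.7%, with a median difference of -0.01. The 9 include KLHL24 and CREBRF, which were called between Ra and vehicle on these same Ra arrays. The list was chosen with earlier results of these data known, so its share is no separate evidence. Without Fk replicate 3 the median was -0.14, against 0.01 over all genes, and 12 lay lower and 1 higher, or 46.4%, against 32%. Fk replicate 3 lay higher than its fellows in several members, with a list median gap of 0.12, so the list's median depends on that array.

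Of the list's members 14 lay above 0 and 14 below, and those lower without overlap include IRS2, IGF1R and IRS1, none of them called. IRS2, an adaptor of the insulin receptor, had 11.02, 10.69 and 9.64 in Fk, against 11.26, 11.18 and 11.48 in Ra, a difference of -0.85 (adjusted p 0.453) and -0.45 without Fk replicate 3. The further members named here were chosen after their values were seen. IGF1R, the receptor of insulin-like growth factor 1, had 7.68, 7.50 and 6.71 in Fk, against 8.21, 8.25 and 8.03 in Ra. FBXO32, a ubiquitin ligase component and classical FOXO target of wasting muscle, had 8.36, 8.05 and 8.43 in Fk, against 9.44, 9.05 and 9.43 in Ra, a difference of -1.03 that was -1.10 without Fk replicate 3. IRS1, SOD2 and KLF6 also lay lower without overlap, with differences of -0.61, -0.63 and -1.01. For INSR, the insulin receptor, the difference was -0.33 and 3 of its 4 probe sets had the opposite sign.

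Other FOXO-linked genes gave different readings. TXNIP, a brake on glucose uptake, had 9.81, 9.39 and 11.68 in Fk, against 10.05, 10.26 and 11.12 in Ra, so the groups overlapped with a difference of -0.18, and without Fk replicate 3 it was -0.88. GABARAPL1, an autophagosome protein of the lysosome and autophagy list, had 7.94, 7.90 and 8.97 in Fk, against 8.66, 8.66 and 9.02 in Ra, and its difference was -0.51, or -0.86 without that array. PIK3R3, a regulatory subunit of phosphoinositide 3-kinase named after its values were seen, was the member that lay higher, at 9.96, 10.49 and 9.94 in Fk against 9.02, 9.71 and 9.47 in Ra.

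The mTOR list, of complex subunits and upstream brakes, held members on either side. MTOR itself had 7.85, 7.59 and 7.45 in Fk, against 7.54, 7.84 and 7.53 in Ra, with a difference of -0.0048 and an SE of 0.15. Among the brakes on the kinase SESN2, DDIT4 and TSC1 lay higher in Fk. SESN2, which reports amino acid lack to mTOR, had 9.10, 8.70 and 10.06 in Fk, against 7.83, 7.92 and 8.0 in Ra, a difference of 1.37 (adjusted p 0.453) and 0.98 without Fk replicate 3. DDIT4, a stress-induced activator of the TSC brake, had 12.85, 12.79 and 12.40 in Fk, against 11.60, 11.89 and 12.09 in Ra, a difference of 0.82 (adjusted p 0.632) and 0.96 without that array.

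TSC1, a subunit of that brake, had 8.12, 8.25 and 8.51 in Fk, against 7.81, 7.74 and 7.74 in Ra. Its groups did not overlap, and its difference was 0.53. Vehicle averaged 8.39 for SESN2 and 12.53 for DDIT4, between the Fk and Ra means of each. Of the list's 29 measured members 5 lay higher (with AKT1S1 and MAPKAP1) and 3 lower in Fk without overlap, or 27.6%, and the median difference was -0.07, against 0.01 over all genes. The 3 that lay lower were RICTOR, RRAGA and RRAGC, named after their values were seen, with differences of -0.34, -0.27 and -0.30. Of the list's members 8 lay higher and 5 lower without Fk replicate 3, or 44.8% against 32% of all genes.

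Heat shock chaperones were the list with the highest share of genes whose groups did not overlap. All 18 measured members had a mean above 0 for Fk minus Ra, with a median of 0.38, and 12 lay higher without overlap and 0 lower, or 66.7% against 18% over all genes. Without Fk replicate 3 the median was 0.22 and 13 lay higher and 0 lower, or 72.2% against 32%. Relative to the mean of the vehicle arrays, the list's median stood at 0.11, 0.05 and 0.14 in the Fk arrays and at -0.21, -0.24 and -0.18 in the Ra arrays. The 3 Fk arrays lay near vehicle and the 3 Ra arrays below it, and 0 members passed the test.

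HSPA4L, a co-chaperone of the HSP70 system, had 9.37, 9.27 and 10.82 in Fk, against 8.63, 8.82 and 8.76 in Ra, a difference of 1.09, the list's highest, and 0.59 without Fk replicate 3. HSPA4, its close relative, had 12.49, 12.60 and 12.72 in Fk, against 12.09, 12.18 and 12.23 in Ra, a difference of 0.44 (adjusted p 0.497) and 0.38 without that array. HSPA14, a ribosome-bound member of the family outside the list, had 9.49, 9.53 and 10.18 in Fk, against 9.04, 9.01 and 9.02 in Ra, with 1 of its 3 probe sets of the opposite sign.

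More members of the list, named after their values were seen, were as even. DNAJA1, which delivers clients to HSP70, had 13.21, 13.23 and 13.28 in Fk, against 12.85, 12.91 and 12.91 in Ra. CHORDC1, a co-chaperone of HSP90, had 10.99, 11.05 and 10.81 in Fk, against 10.58, 10.53 and 10.30 in Ra. In both genes the lowest Fk array lay above the highest Ra array, and leaving out Fk replicate 3 gave a difference of 0.33 for DNAJA1 (0.35 with all arrays) and of 0.55 for CHORDC1 (0.48 with all arrays). Of the 2 probe sets of DNAJA1, 1 had the opposite sign. BAG3 and DNAJB1, with differences of 0.85 and 0.62, were highest in Fk replicate 3 and had 0.42 and 0.44 without it. HSPA6, a strictly stress-induced HSP70 gene outside the list, was at 3.25 and 3.04 in Fk replicates 1 and 2 and at 7.55 in Fk replicate 3, against 3.55, 3.52 and 3.65 in Ra.

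The windows of DNAJA1 and CHORDC1 are shown because both genes separated the groups and both hold the heat shock element, a motif searched after the list's values were seen. They are RefSeq windows on GRCh38.p14 at chr9:33025023-33025322 (plus strand) for DNAJA1 and chr11:90223000-90223299 (minus strand) for CHORDC1, and capitals mark the units GAA, TTC and GAA in a row on either strand, each parted from the next by NN.
DNAJA1: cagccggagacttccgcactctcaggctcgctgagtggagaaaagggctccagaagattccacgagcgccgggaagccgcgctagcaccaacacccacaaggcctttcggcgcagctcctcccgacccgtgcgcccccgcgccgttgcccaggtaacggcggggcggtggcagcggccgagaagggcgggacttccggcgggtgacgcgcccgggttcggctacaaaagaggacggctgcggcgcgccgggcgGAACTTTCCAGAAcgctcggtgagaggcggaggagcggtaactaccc
CHORDC1: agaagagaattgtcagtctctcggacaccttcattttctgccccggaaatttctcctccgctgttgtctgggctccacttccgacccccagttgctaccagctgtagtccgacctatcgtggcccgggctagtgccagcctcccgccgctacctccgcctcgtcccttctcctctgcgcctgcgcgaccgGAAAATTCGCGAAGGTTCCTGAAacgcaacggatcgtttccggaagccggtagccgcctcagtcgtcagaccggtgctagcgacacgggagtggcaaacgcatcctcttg
DNAJA1 holds 1 match and CHORDC1 holds 3 that overlap one another. Of the 16 measured members of the list with a window in the table, 5 hold the element in at least 1 window (CHORDC1, DNAJA1, HSP90AA1, HSP90AB1 and HSPD1). Over all 35116 windows the share is 0.49%, counted per window and not per gene. The list was chosen as heat shock genes, so the element's presence in it says nothing about Fk against Ra.

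**Figure D4:**
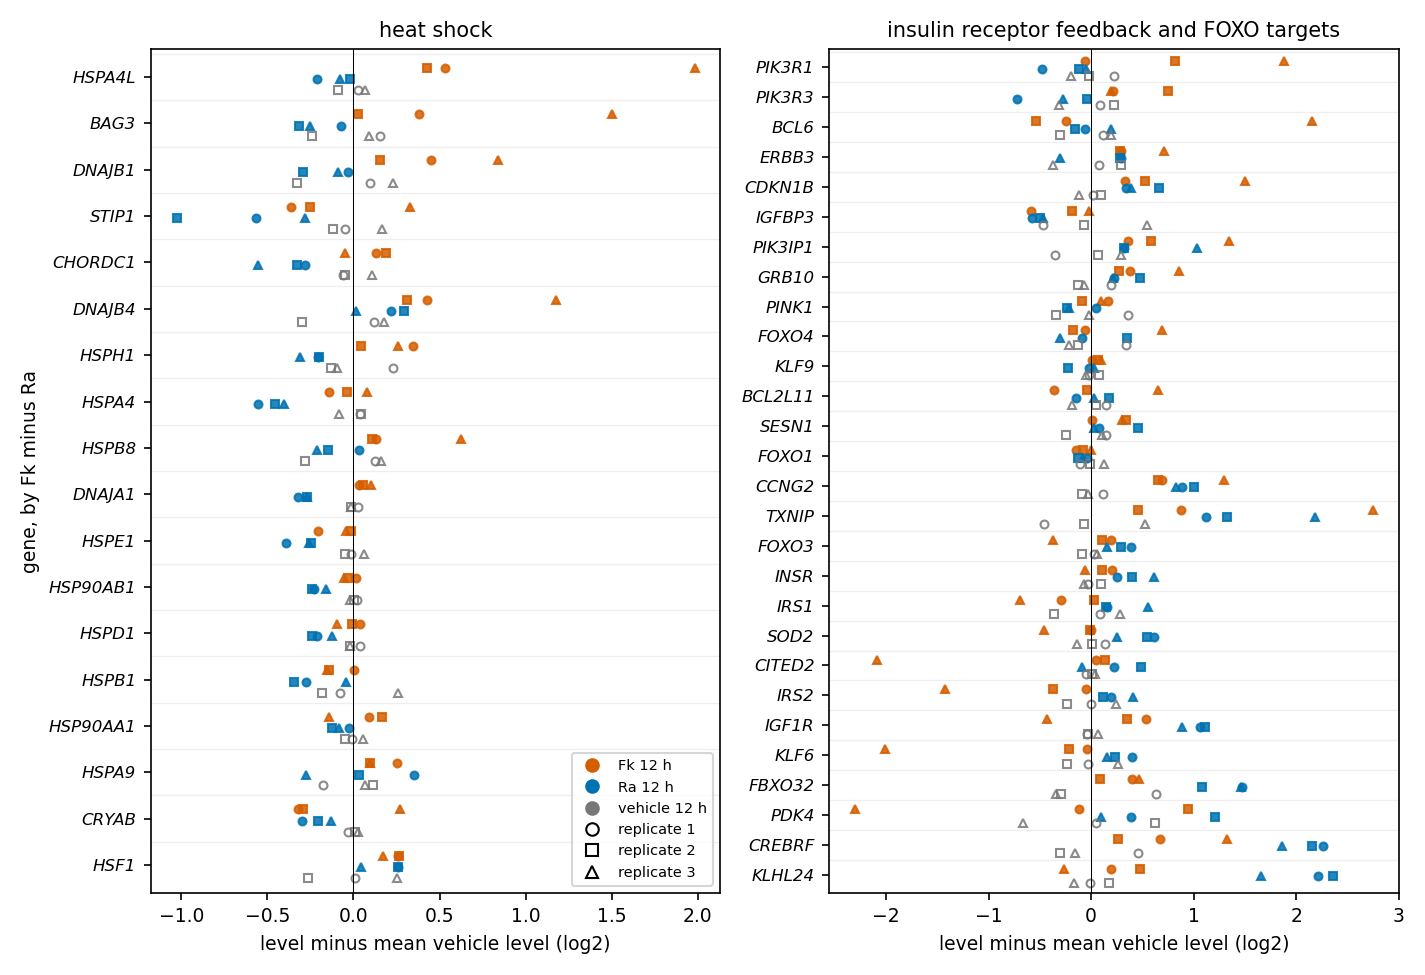
Level minus the mean vehicle level (log2, x axis) of each measured member of the heat shock list (left, 18 genes) and of the insulin and FOXO list (right, 28 genes), 1 point per array with Fk above Ra above vehicle in each row, ordered by Fk minus Ra. In the left panel the Ra points of most genes lie left of 0. In the right panel the Ra points of KLHL24, CREBRF, FBXO32 and IGF1R lie right of the Fk points.

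Genes of ribosome production and other MYC targets lay below vehicle in both treatments and less so in Fk. The list median relative to vehicle was -0.25, -0.29 and -0.16 in the Fk arrays and -0.37, -0.45 and -0.43 in the Ra arrays, with no overlap. Of 25 measured members 9 lay higher in Fk without overlap and 1 lower (MYC), or 40%, with a median difference of 0.17. Its median was 0.20 without Fk replicate 3 and 15 lay higher and 1 lower, or 64% against 32%. NOP16, POLR1C and SRM, named after their values were seen, had differences of 0.44, 0.39 and 0.41. They encode a nucleolar assembly factor, a subunit of RNA polymerases I and III, and spermidine synthase.

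The ribosome's own proteins differed by little with all arrays: 23 measured members of the cytosolic ribosomal protein list had differences from -0.11 to 0.07 with all arrays, and 0 lay apart in either direction. Without Fk replicate 3 the median was -0.05, 1 member lay above 0, and 11 lay lower in Fk without overlap and 0 higher, or 47.8% against 32% of all genes. RPL3, a protein of the large subunit, had 13.70, 13.70 and 14.02 in Fk, against 13.87, 13.85 and 14.03 in Ra. EEF2, the elongation factor that moves the ribosome along, had 13.26, 13.09 and 13.10 in Fk, against 13.59, 13.47 and 13.39 in Ra, a difference of -0.34 (adjusted p 0.630), while the initiation factor EIF2S1 had 12.02, 12.07 and 12.56 in Fk against 11.88, 11.72 and 11.87 in Ra. EEF2 and EIF2S1 kept their groups apart without Fk replicate 3.

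DANCR, a host gene of small nucleolar RNAs, had 9.41, 9.41 and 10.11 in Fk, against 9.05, 8.96 and 9.25 in Ra. Of the 15 host genes on the list 5 were measured. Their median relative to vehicle was -0.39 and -0.52 in Fk replicates 1 and 2 and 0.86 in Fk replicate 3, against -0.43, -0.54 and -0.29 in Ra, so that Fk replicate 3 stood on the other side of vehicle from all other treated arrays.

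Targets of ATF4 and CHOP lay slightly higher in Fk, with wide spread between replicates. Of 33 measured members 6 lay higher without overlap and 0 lower, or 18.2%, close to the 18% of all genes, with a median of 0.33. Without Fk replicate 3 the median was 0.17 and 7 lay higher and 0 lower, or 21.2%, below the 32% of all genes. CHAC1, an enzyme that degrades glutathione under ATF4, had 6.32, 4.76 and 8.33 in Fk, against 4.82, 4.34 and 4.25 in Ra, so that Fk replicate 2 lay under a Ra array. Its difference of 2.00 (adjusted p 0.630) was 1.07 without Fk replicate 3. INHBE, a liver-type activin subunit turned on by the same pathway, had 8.13, 6.36 and 7.50 in Fk, against 5.70, 4.42 and 6.41 in Ra, where replicate 2 was lowest in both treatments, and its difference was 1.82 (adjusted p 0.699).

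DDIT3, which encodes CHOP, had 9.07, 8.26 and 11.34 in Fk, against 8.61, 8.02 and 8.50 in Ra, and ATF3, a factor induced with it, had 7.80, 6.94 and 10.74 in Fk, against 7.61, 7.30 and 7.11 in Ra. Their differences of 1.18 and 1.15 were 0.29 and 0.03 without Fk replicate 3, which alone was high. ASNS, asparagine synthetase, and TRIB3, an inhibitory pseudokinase, overlapped between the groups, with differences of 0.33 and 0.29. GDF15, a stress cytokine, lay the other way at 11.34, 10.38 and 9.93 in Fk against 11.85, 11.44 and 11.22 in Ra, with overlap and a difference of -0.95 (adjusted p 0.835). The ER chaperone HSPA5 had a difference of 0.02, and of 27 chaperone and ER degradation genes 0 lay higher and 2 lower without overlap, or 7.41%. Their share was 18.5% without Fk replicate 3, against 32% of all genes. Among 15 aminoacyl-tRNA synthetases 2 lay higher without overlap and 0 lower, TARS1 by 0.40 and HARS1 by 0.33. This is 13.3%, below the 18% of all genes, and 13.3% against 32% without Fk replicate 3.

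Cholesterol synthesis genes lay higher in Fk in part of the list. With all arrays 4 of 19 measured members lay higher without overlap and 0 lower, or 21.1%, with a median of 0.24. Their median was 0.36 without Fk replicate 3 and 11 lay higher, or 57.9% against 32%. NSDHL, a late-pathway sterol dehydrogenase, had 10.11, 10.06 and 10.59 in Fk, against 9.73, 9.66 and 9.19 in Ra, a difference of 0.73. MVK, mevalonate kinase, had 8.58, 8.14 and 8.90 in Fk, against 8.11, 8.02 and 7.50 in Ra. Replicate 3 was the lowest array of the list in both treatments, with medians relative to vehicle of 0.35, 0.15 and -0.23 in Fk and 0.09, 0.15 and -0.49 in Ra, and also of the controls, at 0.20, -0.01 and -0.23, and the part of a shared replicate effect in the counts was not tested. Of 21 fatty acid and glycerolipid genes, 0 lay higher and 1 lower with all arrays, and 8 lay higher and 2 lower without Fk replicate 3, or 47.6% against 32% of all genes.

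Immediate early genes gave the widest gap between Fk replicate 3 and the rest. The median of 32 measured members relative to vehicle was 0.28, 0.07 and -1.49 in the Fk arrays and 0.40, 0.20 and 0.16 in the Ra arrays. With all arrays their median difference was -0.58 and 7 lay lower without overlap, or 21.9%, and without Fk replicate 3 the median was -0.02. The share was then 28.1%, against 32% of all genes. ZFP36L1, which marks short-lived transcripts for decay, had 12.63, 12.60 and 7.77 in Fk, against 13.13, 13.0013 and 12.85 in Ra. DUSP6, the phosphatase that limits ERK, had 12.63, 12.84 and 7.97 in Fk, against 12.59, 13.003 and 12.55 in Ra. A difference of -1.57 for DUSP6 was thus 0.02 without Fk replicate 3, and that of ZFP36L1 was -1.996, or -0.38 without it.

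Cytokine and interferon-stimulated genes also had their lowest Fk medians in replicate 3. That number was the lowest of the Ra arrays too. Medians relative to vehicle were 0.03, -0.11 and -0.14 in Ra for cytokine genes and 0.53, 0.88 and 0.22 for interferon genes. In the controls they were 0.07, -0.23 and 0.11 for cytokine genes and 0.18, 0.04 and -0.16 for interferon genes. The part of a shared replicate effect was not tested. CXCL8, a neutrophil chemokine, had 12.91, 12.76 and 8.39 in Fk, against 13.13, 12.70 and 12.92 in Ra. NFKBIZ, a cofactor of NF-kB, had 12.11, 12.39 and 8.74 in Fk, against 12.43, 12.58 and 12.29 in Ra. Of 27 cytokine and NF-kB genes 2 lay higher and 3 lower without overlap, or 18.5%, and their median of -0.21 was -0.08 without Fk replicate 3. Their share was then 22.2%, against 32% of all genes. IFIT2, an antiviral protein called between Ra and vehicle, had 9.21, 8.72 and 7.62 in Fk, against 9.57, 10.24 and 8.86 in Ra, and 8.03, 7.64 and 6.62 in vehicle, a difference of -1.03 with overlap. IFIT5 had 8.05, 8.29 and 6.66 in Fk, against 8.72, 8.77 and 8.44 in Ra. The 29 interferon genes had a median of -0.27, with 0 higher and 4 lower without overlap, or 13.8%, against 18% of all genes. Without Fk replicate 3 their median was -0.07 and the share was 13.8%, against 32% of all genes.

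The remaining wide gaps of Fk replicate 3 from the mean of its fellows were -5.22 for VMP1, an ER protein of autophagy, -4.74 for PPP1R3B, a glycogen-targeting subunit, and -4.25 for SYNM, an intermediate filament protein. Upward gaps were 5.00 for DLX1, 4.4 for CIART, 4.32 for MAP3K8, 4.23 for OSR2 and 4.11 for FOXP2. DLX1 had 3.46, 3.49 and 8.48 in Fk, against 4.51, 5.04 and 3.96 in Ra, so its difference was 0.64 with all arrays and -1.02 without that array. These 12 genes, with ZFP36L1, DUSP6, CXCL8 and HSPA6 among them, are listed to show the size of that array's departure and not as differences between the compounds.

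**Figure D5:**
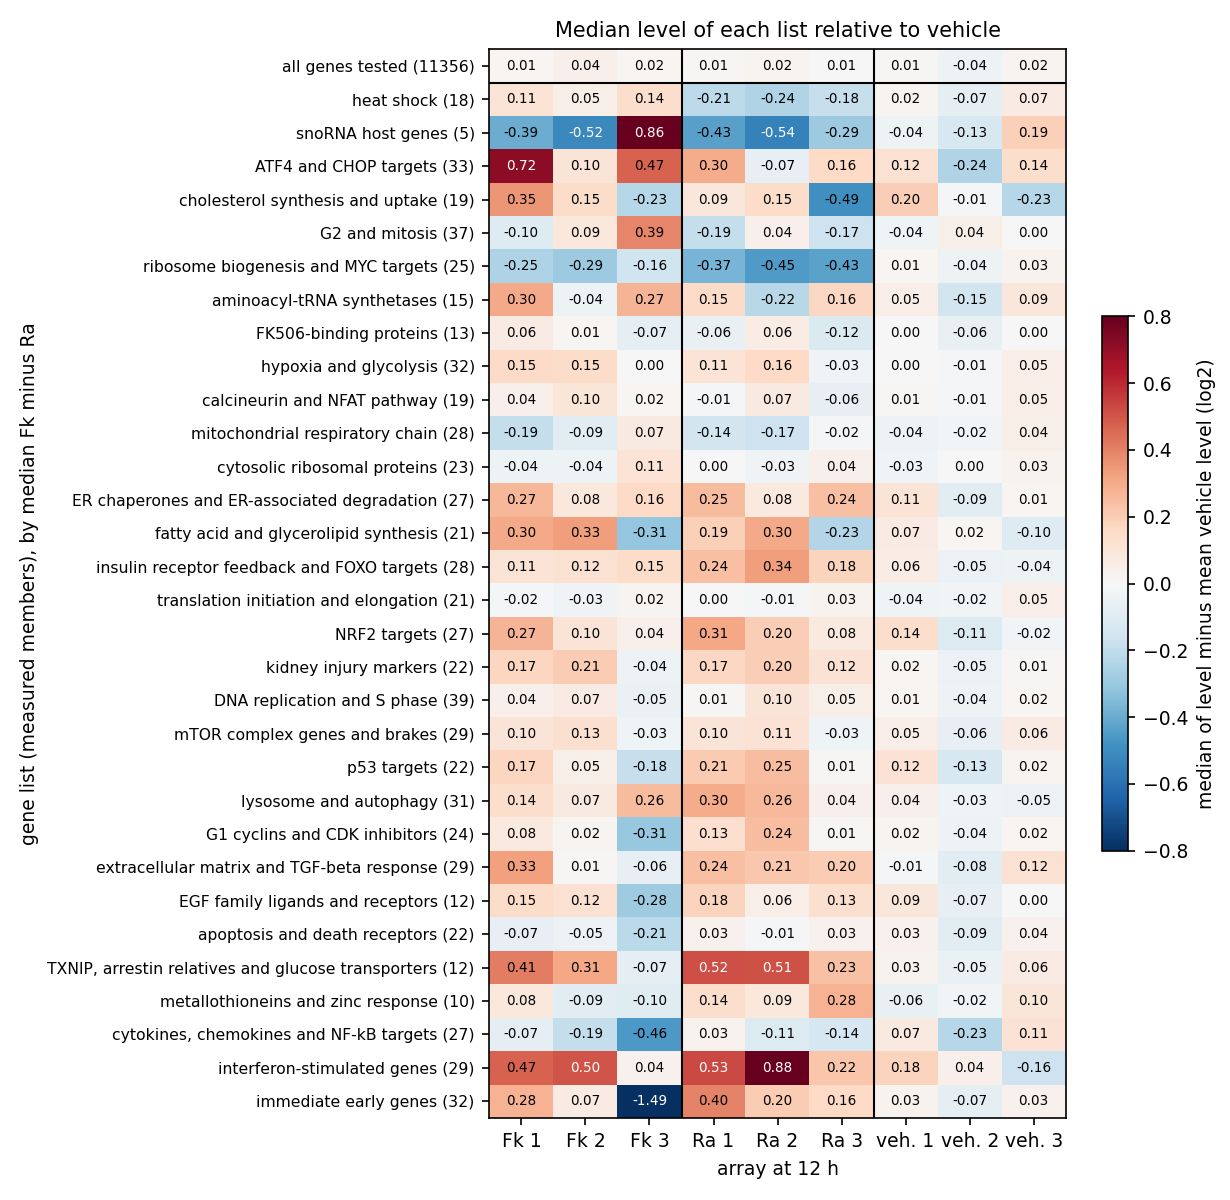
Median over the measured members (number in brackets) of each list's level minus the mean vehicle level (log2, colour and number), by array (x axis, Fk left, then Ra, then vehicle), with lists ordered by median Fk minus Ra (y axis). Heat shock is above 0 in all 3 Fk arrays and below 0 in all 3 Ra arrays. Fk replicate 3 stands alone at -1.49 for immediate early genes and at 0.86 for snoRNA hosts.

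Genes of the FKBP and calcineurin families had median differences of 0.09 and 0.06, with 0 called. FKBP1A, the small cytosolic immunophilin, had 13.28, 13.26 and 12.73 in Fk, against 13.14, 13.25 and 12.82 in Ra, a difference of 0.02. FKBP4, a co-chaperone of HSP90, had 9.89, 9.68 and 9.74 in Fk, against 9.42, 9.22 and 9.27 in Ra, a difference of 0.47 (adjusted p 0.750) and 0.48 without Fk replicate 3. It lay higher in all 3 Fk arrays, and FKBP5, the glucocorticoid-induced relative, overlapped with a difference of 0.28. Of 13 measured FKBP genes 2 lay higher and 0 lower, or 15.4%. These numbers were 5 and 1 without Fk replicate 3, or 46.2% against 32% of all genes.

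PPP3CA, the catalytic subunit of calcineurin, had 10.54, 10.55 and 10.50 in Fk, against 10.47, 10.32 and 10.54 in Ra, a difference of 0.09. RCAN1, an inhibitor of calcineurin and a target of NFAT, had 8.60, 8.36 and 8.99 in Fk, against 8.17, 7.83 and 7.97 in Ra. Its difference was 0.66 (adjusted p 0.625), and 0.49 without Fk replicate 3, and 1 of its 2 probe sets had the opposite sign. NFATC3, a factor freed by calcineurin, lay higher by 0.52 without overlap. Of 19 measured genes 4 lay higher and 1 lower, or 26.3%. The share was 31.6% without Fk replicate 3, against 32% of all genes.

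Cell cycle lists had medians relative to vehicle of -0.10 to 0.09 in Fk replicates 1 and 2 and of -0.19 to 0.24 in the Ra arrays. Fk replicate 3 was at 0.39 for G2 and mitosis and at -0.31 for G1 cyclins and CDK inhibitors. CDKN1C, a CDK inhibitor, had 7.12, 7.73 and 6.60 in Fk, against 8.52, 8.60 and 8.36 in Ra, a difference of -1.34 (adjusted p 0.453) and -1.06 without Fk replicate 3, and vehicle at 8.44, 8.61 and 8.06 lay with Ra. CDKN1A and CCND1 overlapped, with differences of -0.28 and -0.05. Of 37 genes of G2 and mitosis 6 lay higher and 0 lower, or 16.2%, with a median of 0.23 that was 0.11 without Fk replicate 3. Of 39 genes of DNA replication 2 lay higher and 5 lower, or 17.9%. These 2 lists had shares of 16.2% and 30.8% without Fk replicate 3, against 32% of all genes.

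Metallothioneins, zinc-binding proteins, lay lower in Fk by small amounts. MT2A had 14.44, 14.03 and 14.29 in Fk, against 14.58, 14.45 and 14.65 in Ra, a difference of -0.30 (adjusted p 0.922). Of 10 measured genes of the list 5 lay lower without overlap and 0 higher, or 50%, with a median of -0.20, and -0.16 without Fk replicate 3. All 5 were metallothionein genes, whose near-identical sequences can share probes. In the list 1 lay higher and 5 lower without Fk replicate 3, or 60% against 32% of all genes. EGLN3, an oxygen-sensing hydroxylase, had 4.77, 4.76 and 5.78 in Fk, against 4.12, 4.19 and 4.27 in Ra, and BNIP3L, a mitophagy receptor, had 11.31, 11.42 and 10.90 in Fk, against 11.86, 11.98 and 11.70 in Ra. Of 32 hypoxia and glycolysis genes 5 lay higher and 3 lower, or 25%. The numbers were 12 and 5 without Fk replicate 3, or 53.1% against 32% of all genes.

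Kidney injury markers showed no early separation. HAVCR1, the tubular injury marker, had 10.51, 10.88 and 9.85 in Fk, against 10.42, 10.78 and 10.90 in Ra, a difference of -0.29. CLU differed by 0.17, HMOX1 by -0.14 and the efflux pump ABCB1 by 0.10, all with overlap, and LCN2 was at 3.66, 4.48 and 3.67 in Fk and 3.66, 4.35 and 3.18 in Ra, near the detection level. VCAM1, a leukocyte adhesion protein, had 6.08, 6.31 and 4.83 in Fk, against 6.82, 6.70 and 8.06 in Ra, the list's 1 member of 22 without overlap, or 4.55%. The list's share was 13.6% without Fk replicate 3, against 32% of all genes. ABCC3, an organic anion exporter, had 8.21, 7.99 and 7.43 in Fk, against 9.10, 9.03 and 9.11 in Ra, with a difference of -1.20 (adjusted p 0.598) and -0.98 without Fk replicate 3.

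Further lists were described by their members of lowest p, all uncalled. BAK1, a pore-forming executor of mitochondrial apoptosis, had 7.35, 7.49 and 7.45 in Fk, against 6.78, 6.77 and 6.74 in Ra, a difference of 0.66 (adjusted p 0.568) and 0.65 without Fk replicate 3. BIRC2, an inhibitor of apoptosis, lay the other way at 10.31, 10.37 and 9.18 in Fk against 10.42, 10.41 and 10.51 in Ra, with most of the difference of -0.49 from Fk replicate 3. Of 22 apoptosis genes 1 lay higher and 4 lower without overlap, or 22.7%. The share was 27.3% without Fk replicate 3, against 32% of all genes.

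ATF6, a sensor of misfolded protein in the ER, had 7.83, 7.98 and 7.57 in Fk, against 8.15, 8.49 and 8.34 in Ra, a difference of -0.53 that was -0.42 without Fk replicate 3. CKS2, a small partner of mitotic CDKs, lay higher at 13.01, 13.23 and 13.29 in Fk against 12.70, 12.82 and 12.53 in Ra. TGFA, a ligand of the EGF receptor, had 10.03, 9.88 and 8.79 in Fk, against 10.14, 10.04 and 10.03 in Ra, and its difference of -0.50 was -0.12 without Fk replicate 3. ARRDC3, an arrestin relative that FOXO factors turn on, was at 9.26, 9.49 and 11.25 in Fk against 9.18, 9.69 and 9.25 in Ra, so that Fk replicate 3 alone was high. TP53INP1, a p53 target, was low in the same array, at 7.13, 7.54 and 3.88 in Fk against 7.75, 7.95 and 7.36 in Ra.

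In the remaining lists the shares of members without overlap were 27.3% of 22 p53 targets, 25% of 24 G1 cyclins and CDK inhibitors, 29% of 31 lysosome and autophagy genes, and 21.4% of 28 respiratory chain genes. They were 7.41% of 27 NRF2 targets, 33.3% of 12 genes of the EGF family, 13.8% of 29 matrix genes, and 0 of 12 genes of the TXNIP and glucose transporter list. In the same order, the shares without Fk replicate 3 were 36.4%, 29.2%, 41.9%, 42.9%, 14.8%, 33.3%, 27.6% and 16.7%, against 32% of all genes. Medians of all these lists lay between -0.17 and 0.04, against 0.01 over all genes.

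Against vehicle the 2 compounds can be set side by side, with the reminder that they share the control arrays. At 12 h Fk gave 0 called genes (0%) by limma, with 712 at an unadjusted p under 0.05, and Ra gave 8 (0.0704%), of which 6 rose (KLHL24, CREBRF, UBALD2, NATD1, IFIT2 and SULT1C2) and 2 fell (LTV1 and TNFRSF10C), with 879 at that level. Values for Fk minus vehicle and Ra minus vehicle were 0.13 and 2.08 for KLHL24, 0.42 and 1.92 for NATD1, 0.75 and 2.09 for CREBRF, 0.83 and 1.99 for UBALD2, 1.09 and 2.12 for IFIT2, and 1.07 and 1.67 for SULT1C2. For LTV1 they were -0.30 and -0.89, and for TNFRSF10C -0.63 and -0.82. The 8 genes were picked for their difference between Ra and vehicle, so the order of these pairs of values is no result. Of the 8, KLHL24 passed the direct test of Fk against Ra.

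Across time the comparison changed. At 48 h 1962 genes were called between Fk and Ra, 17.3% of those tested, 1721 higher and 241 lower. Without Ra 48 h replicate 2, which lay furthest from its group of all 48 arrays, there were 555, 296 higher and 259 lower. A test of the 48 h difference minus the 12 h difference called 144 genes, 1.27% of those tested, 135 higher and 9 lower. Without Fk 12 h replicate 3 the number was 132, of which 73 are among the 144. Without Ra 48 h replicate 2, 11 genes were called, 5 higher and 6 lower, with 8 of them among the 144. Without both arrays 20 were called, 11 higher and 9 lower, with 14 shared. The excess of higher calls was thus not seen without Ra 48 h replicate 2, and the median over all genes was 0.20 with it and 0.0015 without it. The calls made with and without Ra 48 h replicate 2 include ANK2, BEX2, CDC25A, CCNE1 and SRRT.

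ANK2, a membrane-cytoskeleton adaptor, had 7.38, 6.38 and 6.73 in Fk, against 7.39, 6.95 and 6.92 in Ra at 12 h, and 10.12, 9.63 and 9.05 in Fk, against 6.65, 3.76 and 5.12 in Ra at 48 h. The difference between times was 4.69 (adjusted p 0.000631), and 3.98 (adjusted p 0.00258) without Ra 48 h replicate 2. CDC25A, the phosphatase that opens S phase, had 7.67, 7.79 and 7.94 in Fk, against 7.36, 7.54 and 7.75 in Ra at 12 h, and 5.44, 5.44 and 5.16 in Fk, against 6.78, 6.58 and 7.74 in Ra at 48 h. Its difference between times was -1.93 (adjusted p 0.00425). Neither gene separated the treatments at 12 h.

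CCNE1, the cyclin of S phase entry, was level at 12 h, with 8.02, 7.77 and 7.97 in Fk against 8.22, 8.06 and 7.90 in Ra, and stood at 5.30, 5.19 and 5.92 in Fk against 7.38, 6.62 and 8.08 in Ra at 48 h. SRRT, a cofactor of RNA processing, lay higher in Fk at 12 h by 0.61, at 11.61, 11.73 and 11.75 in Fk against 11.11, 11.21 and 10.95 in Ra, and lower at 48 h, with a difference of -0.99. BEX2 lay the other way, with a difference of -0.65 at 12 h and of 3.20 at 48 h. Neither 12 h difference was called by limma (adjusted p 0.484 for SRRT and 0.814 for BEX2). KLHL24 itself had 9.83, 9.54 and 9.87 in Fk, against 10.20, 8.96 and 9.50 in Ra at 48 h, so the 12 h separation was not seen there, with a difference between times of 2.14 (adjusted p 0.0182) that did not pass without Ra 48 h replicate 2 (1.84, adjusted p 0.0734). SESN2 and DDIT4 were called at 48 h, higher in Fk by 2.75 and 1.97 (2.07 and 1.59 without Ra 48 h replicate 2, both still called), with differences between times of 1.39 and 1.14 that did not pass (adjusted p 0.208 and 0.251).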

How the data were processed

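RNA of the HK-2 cultures was measured on 48 one-colour oligonucleotide arrays of 54675 probe sets in 16 groups of 3. The deposited values are log2 signals. The submitters' processing notes name GCRMA for them, with no version, per the labels. They run from 0.72 to 16.11. An array gives no read depth, and the number of arrays limits the precision. No scan batch was used here. Probe sets were named by the platform annotation: 41091 have 1 gene symbol, 1801 several and 11721 are not listed, and these last were left unnamed. Genes needed a value over log2 4 in at least 3 arrays, and a gene with several probe sets is represented by the one of highest mean.

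All 48 arrays were fitted with limma 3.58.1 and statmod 1.5.0 in R 4.3.3 (lmFit and eBayes, 1 mean per group, 32 residual degrees of freedom), with Benjamini-Hochberg adjustment over all genes tested. The procedure was tested on simulated data with independent noise of the same spread in every array. That simulation held no outlying array and no pairing by replicate, so it cannot speak to those features of these data. Named genes are those called without overlap, filled to 12 in each direction by lowest p among genes that do not overlap and reach log2 5, list members of lowest p, the widest gaps of Fk replicate 3, the strongest calls between times and a list of stress and transport genes. All members and gene lists were chosen with earlier results of these data known, and a gene named outside the rule is said to be. The heat shock element was searched after values were seen, as were the gene-by-gene array weights. Alternatives were the replicate block, filters, scaling, sample subsets, probe set choice, array weights and leaving out each replicate.

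The replicate numbers come from the labels. Deviations from the group mean of same-numbered Fk and Ra arrays at 12 h correlated at 0.19 to 0.34 in all 3 pairs, against -0.24 to 0.05 for other numbers, so the numbers were taken as pairing these arrays. Over all pairs of groups of the set, 19 of 45 exceeded 0.1. Between 12 h and 48 h, same-numbered arrays correlated at -0.08, 0.01 and -0.13 for Fk and 0.09, -0.02 and 0.15 for Ra.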

Additional observations from a re-analysis of the deposited data

Results flagged for a closer look

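The difference between Fk and Ra at 48 h differed from that at 12 h, by a test of the difference itself, for 144 genes. The 5 whose calls also hold without Ra 48 h replicate 2 and are described above were ANK2 (4.69), BEX2 (3.85), CDC25A (-1.93), CCNE1 (-1.75) and SRRT (-1.60), each given as the 48 h difference minus the 12 h difference in log2. Among the genes with the largest differences between times, 7 were called with all arrays and not without Ra 48 h replicate 2. These were ERO1B, an ER oxidase (4.32), ALDH1L2, a mitochondrial folate enzyme (4.20), SYTL1 (3.66), CAMTA2 (3.63), CCNF, a cyclin of ubiquitin ligation (-1.79), CSTF3, a factor of mRNA 3′ end formation (-1.39), and CHAF1A, a histone chaperone of replication (-1.21). The same loss was seen in KLHL24, CHMP1B, MNT, NATD1, MIB1, UBN2, ATF6, MIOX and ADAM17. The groups have 3 arrays each, so no group was large enough for a test of single outlying arrays.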

How the results depend on the processing

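A block for the replicate number gave 5 calls between Fk and Ra at 12 h (1 without it), 4 without Fk replicate 3 (0 without the block) and 1146 for the difference between times (144 without it). With that pairing in the 12 h arrays of the set alone, the counts were 3 and, for times, 225, and without Fk replicate 3 they were 0 (KLHL24 at an adjusted p of 0.0853) and 45. NATD1 and UBALD2 were not called under it. Between Fk and Ra, no filter on low values gave 9 calls, quantile normalization 2, and the fits of the 2 groups alone, the 12 h arrays alone and the mean of probe sets 0 each. Array weights gave 872 (an estimate that stopped before it converged) and gene-by-gene weights 355, or 346 without Fk replicate 3, with 319 genes shared. These weights put 0.132 on Fk replicate 3, against 2.55 and 2.05 on its fellows. The set of 18 arrays called 1 gene, YPEL1, in place of KLHL24, and again 1 with Fk replicate 3 and Ra 48 h replicate 2 left out. Leaving out 1 replicate at a time gave 0 to 32 calls: 0 without Fk 3, Ra 1 or Ra 2, 32 without Fk 2, 6 without Fk 1 and 3 without Ra 3.

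For the difference between times, no filter gave 77 calls, the set of 18 arrays 9, the fit without Ra 48 h replicate 2 gave 11, array weights 1828 and gene-by-gene weights 2104, and leaving out 1 replicate number 6 to 330. Under quantile normalization 59 of 118 calls were higher, against 135 of 144. The sign of DLX1 turned under array weights, at -1.01. Of 2613 values of named genes under the alternatives, 2356 kept their side of the threshold, and those uncalled moved by less than their SE. A further 149 uncalled values moved by their SE or more, 100 became called, 7 lost the call and 1 changed sign with a call. Of 720 list medians 676 moved by less than the spread of that median between replicate arrays. The cause of these dependences was not tested. With 3 arrays per group, the median SE of a difference was 0.26 on the log2 scale.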
